A study of Homo sapiens with 4 samples.

Results

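Nicotinamide N-methyltransferase (NNMT, ENSG00000166741) and 8 other genes of nicotinamide, NAD and methionine metabolism were followed in irradiated human cells: NAMPT, NAPRT, NMNAT1, NADK, NNT, SIRT1, AHCY and MAT2A. They are 9 of the 36601 genes listed for each library and were found by gene symbol. The group was set around NNMT, which was chosen by its ratio to the control at 10 mGy, the highest among genes of high level, so that ratio is a description and supports nothing. BEAS-2B, a line of bronchial epithelial cells that was immortalized in culture, was left unirradiated (control) or exposed to gamma rays of Cs-137 at 10 mGy, 100 mGy or 1 Gy. The dose rate was 100 mGy per min, cells were irradiated in T25 bottles, and single-cell libraries of polyA RNA were made after 30 min of further culture. The comparison of each dose with the control asks how expression in a low-dose group and in a high-dose group differs from unirradiated cells. Each of the 4 groups has 1 library, so a dose cannot be told apart from its library, no test was possible, and every interval below covers counting error only.

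NAD carries electrons in energy metabolism and is also consumed by sirtuins and by ADP-ribosyltransferases of the PARP family, which release nicotinamide. Cells return nicotinamide to NAD through NAMPT and the NMNAT enzymes, whereas NNMT methylates nicotinamide with S-adenosylmethionine and so removes it from this salvage route. S-adenosylmethionine is made by MAT2A, and the S-adenosylhomocysteine left after methyl transfer is split by AHCY.

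The libraries held 11111 to 21514 cell barcodes and 211752280 to 285806026 unique molecular identifiers (UMIs), with a median of 12417 to 19771 UMIs per barcode. Levels are given as the UMIs of a gene summed over all barcodes of a library, per 1000000 UMIs of that library (CPM), with an exact 95% Poisson interval. Barcodes with a UMI count under the library median divided by 3 (low-UMI barcodes) were 19.6%, 41.4%, 27.4% and 25.4% of all, from the control through 10 mGy and 100 mGy to 1 Gy. Ribosomal protein genes took 13.9%, 19.97%, 21.8% and 14.0% of the UMIs in that order, and at 10 mGy and 100 mGy the median gene was at 0.810 and 0.766 of its control level, against 1.01 at 1 Gy. Pairs of libraries shared 76 to 134 barcodes. Of 7 epithelial markers, KRT7, KRT8 and KRT18 were above 10 CPM in every library, while CDH1 was at most 0.049 CPM and EPCAM at most 1.17 CPM. The 3 mesenchymal markers were all above 10 CPM in every library and summed to 4431 CPM in the control, 3288 CPM at 10 mGy, 3135 CPM at 100 mGy and 4005 CPM at 1 Gy. Of these, FN1, singled out after its values were seen, was at 1546, 623, 640.1 and 1466 CPM in that order. Unlike FN1, the rest of that sum was lower at 1 Gy than at 10 mGy. The part of these markers in the levels of the members was not tested. The 3 fibroblast, 3 endothelial and 3 immune markers summed to at most 0.231, 0.679 and 0.099 CPM.

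NNMT was at 69.5 CPM in the control (interval 68.4 to 70.6), 172 CPM at 10 mGy (171 to 174), 163 CPM at 100 mGy (161 to 164) and 67.4 CPM at 1 Gy (66.3 to 68.5). Both low-dose libraries thus stood far above the control and 1 Gy, which were close to each other. The ratio at 10 mGy was 2.48 (2.43 to 2.52), the first among 1779 genes of at least 100 CPM as the mean over the libraries. The next in that order were IFI27L2 at 2.24 and C12orf57 at 2.20. All 3 were below 100 CPM in the control and had that mean through the libraries where they were high, so the minimum favours such genes. Among 8507 genes of at least 10 CPM, NNMT was the fourth, after TMEM40, LINC01638 and MGST2, each of them under 8 CPM in the control. The ratio depended on the averaging, with 1.43 when log2(UMIs per 10000 + 1) was averaged over barcodes and 3.05 after scaling that put the median gene near 1.

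At 100 mGy the ratio of NNMT to the control was 2.34 (2.30 to 2.39), the second of 8507 genes, and at 1 Gy it was 0.970 (0.948 to 0.993). Neither library of the contrast by which NNMT was chosen enters the ratio of 100 mGy to 1 Gy, which was 2.41 (2.37 to 2.46), the third of 8507 genes. That ratio was between 1.38 and 3.22 over 11 alternative ways of scaling and of choosing barcodes. This pattern had been seen in an earlier analysis of these libraries and is not independent support for the choice of the gene. Between the low doses, NNMT was slightly lower at 100 mGy than at 10 mGy, with a ratio of 0.946 (0.933 to 0.958). INMT and PNMT, which encode related methyltransferases, held at most 11 UMIs in any library.

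**Figure D1:**
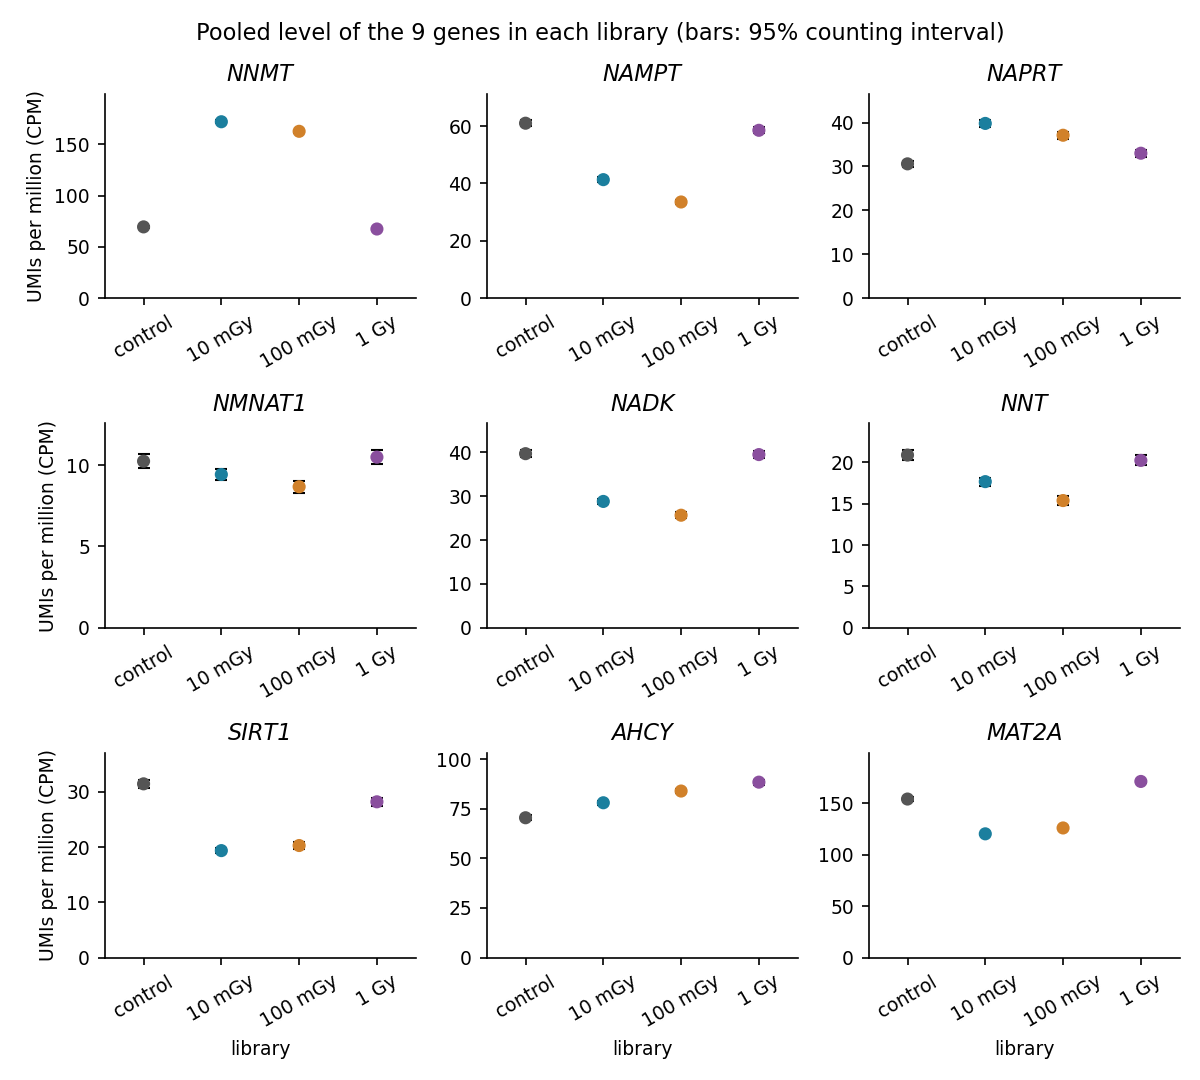
Pooled level in CPM (vertical axis, from 0, a scale of its own for each gene) of the 9 genes in the control, 10 mGy, 100 mGy and 1 Gy libraries, 1 point per library with its 95% Poisson counting interval. NNMT and NAPRT were highest at 10 mGy, NAMPT, NADK, NNT and SIRT1 highest in the control, and NMNAT1, AHCY and MAT2A highest at 1 Gy.

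Among the enzymes that make NAD, NAMPT (ENSG00000105835), which turns nicotinamide into nicotinamide mononucleotide and limits the rate of salvage, was lower at both low doses. It was at 61.0 CPM in the control, 41.3 CPM at 10 mGy, 33.5 CPM at 100 mGy and 58.6 CPM at 1 Gy. None of the 4 counting intervals overlapped. Relative to the control, 10 mGy was at 0.677 (0.661 to 0.694), 100 mGy at 0.549 (0.534 to 0.565) and 1 Gy at 0.959 (0.936 to 0.983). NAMPT stood below the control under each of 11 alternatives at each of the 3 doses, and its ratio lay between 0.470 and 0.856 at 10 mGy, where log means and scaling to the median gene were within 1.2-fold, and between 0.352 and 0.827 at 100 mGy.

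NAPRT (ENSG00000147813), which starts the route from nicotinic acid, was on the other side of the control. It was at 30.6 CPM in the control, 39.8 CPM at 10 mGy, 37.1 CPM at 100 mGy and 33.0 CPM at 1 Gy. The order from 10 mGy down to the control had no overlap of neighbouring intervals. Its ratio was 1.30 (1.26 to 1.34) at 10 mGy, 1.21 (1.18 to 1.25) at 100 mGy and 1.08 (1.04 to 1.12) at 1 Gy, but with unscaled UMIs per barcode it was 0.903, 0.776 and 0.769, and with log means 1.02, 1.00 and 0.996.

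NMNAT1 (ENSG00000173614), the nuclear enzyme that joins the mononucleotide to an adenylate, was at 10.2 CPM in the control, 9.42 CPM at 10 mGy, 8.67 CPM at 100 mGy and 10.5 CPM at 1 Gy. The control and 1 Gy overlapped, and each low dose lay below both. With a mean of 9.70 CPM it missed the minimum of 10 CPM and enters no count of genes below. Its ratios at the low doses, 0.920 and 0.847, became 1.13 and 1.11 after scaling to the median gene.

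NADK (ENSG00000008130) phosphorylates NAD to NADP in the cytosol. It was at 39.7 CPM in the control, 28.8 CPM at 10 mGy, 25.7 CPM at 100 mGy and 39.5 CPM at 1 Gy. The control and 1 Gy overlapped and stood above both low doses. Relative to the control, 10 mGy stood at 0.726 (0.704 to 0.748), 100 mGy at 0.646 (0.626 to 0.668) and 1 Gy at 0.995 (0.965 to 1.03). Over the 11 alternatives, NADK lay between 0.503 and 0.910 at 10 mGy and between 0.414 and 0.895 at 100 mGy, and with log means or scaling to the median gene it was within 1.2-fold of the control at both.

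NNT (ENSG00000112992), a transhydrogenase of the inner mitochondrial membrane that passes hydride from NADH to NADP, was at 20.9 CPM in the control, 17.7 CPM at 10 mGy, 15.4 CPM at 100 mGy and 20.2 CPM at 1 Gy. Here too the control and 1 Gy overlapped and the low doses were below them. The ratio was 0.846 (0.813 to 0.881) at 10 mGy, where scaling to the median gene turned it to 1.04, and 0.737 (0.705 to 0.769) at 100 mGy, where the alternatives gave 0.471 to 0.961. NNT-AS1, an antisense gene listed apart from NNT, was at 14.5, 18.1, 14.5 and 15.9 CPM from the control to 1 Gy. The sources used here do not state that the counting used strand, without which reads of the pair cannot be told apart.

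SIRT1 (ENSG00000096717), a nuclear deacetylase that consumes NAD, was at 31.5 CPM in the control, 19.4 CPM at 10 mGy, 20.3 CPM at 100 mGy and 28.2 CPM at 1 Gy. The low doses were close to each other, with a ratio of 100 mGy to 10 mGy of 1.05 (1.01 to 1.09), and lay well below both other libraries. The ratio was 0.616 (0.594 to 0.638) at 10 mGy, 0.645 (0.621 to 0.669) at 100 mGy and 0.897 (0.866 to 0.929) at 1 Gy. It was below 1 at each dose under each of the 11 alternatives, between 0.427 and 0.910 at 10 mGy and between 0.413 and 0.918 at 100 mGy. With log means it was within 1.2-fold of the control at both low doses, and at 100 mGy also after scaling to the median gene (0.842). At 1 Gy this placed SIRT1 at the 541st lowest ratio of 8507 genes, a difference that did not reach 1.2-fold.

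In the methionine cycle, MAT2A (ENSG00000168906), which makes S-adenosylmethionine, was at 154 CPM in the control, 120.2 CPM at 10 mGy, 126 CPM at 100 mGy and 171 CPM at 1 Gy. The low doses were below the control and 1 Gy was above it. The ratio was 0.780 (0.769 to 0.792) at 10 mGy, 0.818 (0.805 to 0.830) at 100 mGy and 1.11 (1.10 to 1.13) at 1 Gy. After scaling to the median gene, the ratio was 0.962 at 10 mGy and turned to 1.07 at 100 mGy, and the ratio at 1 Gy turned to 0.792 with unscaled UMIs and to 0.993 with log means.

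AHCY (ENSG00000101444) was at 70.5 CPM in the control, 78.0 CPM at 10 mGy, 83.9 CPM at 100 mGy and 88.4 CPM at 1 Gy. It was the 1 member whose levels stood in the order of the doses, with no overlap between neighbours. The ratio was 1.11 (1.08 to 1.13) at 10 mGy, 1.19 (1.17 to 1.22) at 100 mGy and 1.25 (1.23 to 1.28) at 1 Gy, where it was the 37th highest of 8507 genes. The order did not hold in each setting, since with log means both low doses were below the control (0.955, 0.996 and 1.04), with unscaled UMIs all doses were (0.768, 0.762 and 0.894), and scaling to the median gene put 100 mGy highest (1.36, 1.55 and 1.23).

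The study called differential genes by 1.2-fold on mean expression together with a limit on the p-value. Only the fold was used here, since 1 library per dose allows no test. At 10 mGy, 2 of the 8 members with at least 10 CPM were past it above the control (NNMT and NAPRT), where 15.4% of all 8507 genes were, and 4 were past it below (NAMPT, NADK, SIRT1 and MAT2A), where 53.0% of all genes were. Nothing is read from these counts, since NNMT was chosen in that contrast. At 100 mGy, 2 members were above (NNMT and NAPRT) and 5 below (those of 10 mGy and NNT), against 14.0% and 58.9% of all genes. The median ratio of the 8 members was 0.813 at 10 mGy and 0.777 at 100 mGy, close to the 0.810 and 0.766 of all genes. At 1 Gy, 1 member was above (AHCY) and 0 below, against 1.28% and 0.846% of all genes. AHCY was not past 1.2-fold there when UMIs were scaled per barcode (1.199), left unscaled (0.894) or averaged as logs (1.04), and with unscaled UMIs 7 members were below, as were 97.2% of all genes. From 1 Gy to 100 mGy, 1 member was over 1.2-fold higher at 100 mGy (NNMT) and 5 lower, against 14.0% and 60.6%. From 10 mGy to 100 mGy, 0 were higher and 1 was lower (NAMPT, ratio 0.811), against 1.35% and 12.7%.

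Past 1.5-fold, NNMT was the 1 member above the control at 10 mGy, where 4.94% of all genes were, and SIRT1 the 1 member below, where 25.8% were. At 100 mGy these were NNMT, against 5.04%, and NAMPT, NADK and SIRT1, against 33.9%. At 1 Gy, 0 members were past 1.5-fold, against 0.0118% of genes above and 0.0235% below. NNMT was also over 2-fold higher at 10 mGy and 100 mGy than in the control and at 100 mGy than at 1 Gy, where 0.376%, 0.482% and 0.658% of all genes were. Since NNMT was chosen by its ratio at 10 mGy, with its pattern over the doses known, nothing is read from these shares.

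**Figure D2:**
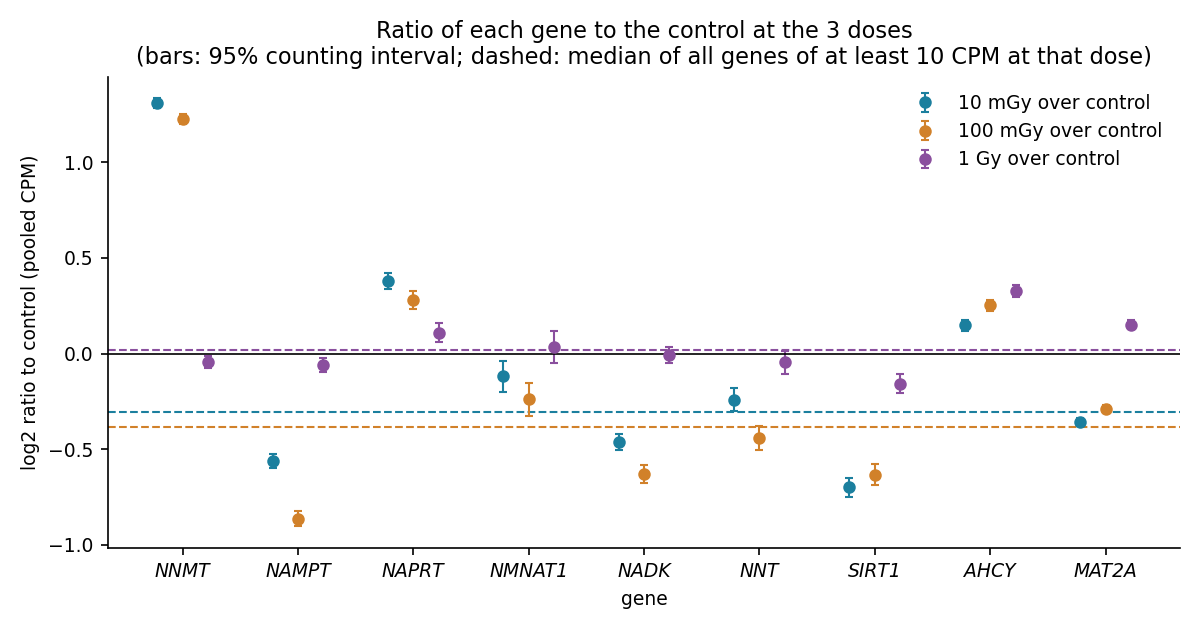
Log2 ratio of pooled CPM to the control (vertical axis) for the 9 genes at 10 mGy, 100 mGy and 1 Gy, with 95% counting intervals and a dashed line at the median of 8507 genes for each dose. NNMT stood at 1.31 and 1.23 at the low doses, while the dashed lines lay at -0.30 and -0.38, and at 1 Gy the members lay between -0.16 and 0.33.

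Sequences of the promoters are shown for NAMPT, SIRT1 and MAT2A, the members past 1.2-fold below the control at 10 mGy for which RefSeq (GRCh38.p14) gives a single start. Each is the 250 bases before the start, 5′ to 3′ on the strand of the gene. Capitals mark matches, on either strand, to the E-box CACGTG, the GC box GGGCGG and the TATA box TATAAA. Matches to different motifs did not overlap here, and neighbouring GC boxes may run together.
NAMPT (chr7:106284984-106285233, minus strand): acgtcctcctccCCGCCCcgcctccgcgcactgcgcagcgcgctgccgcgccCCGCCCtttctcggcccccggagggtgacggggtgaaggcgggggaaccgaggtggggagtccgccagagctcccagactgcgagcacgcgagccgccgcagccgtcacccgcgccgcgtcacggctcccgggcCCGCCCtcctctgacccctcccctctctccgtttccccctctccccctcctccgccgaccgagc
SIRT1 (chr10:67884406-67884655, plus strand): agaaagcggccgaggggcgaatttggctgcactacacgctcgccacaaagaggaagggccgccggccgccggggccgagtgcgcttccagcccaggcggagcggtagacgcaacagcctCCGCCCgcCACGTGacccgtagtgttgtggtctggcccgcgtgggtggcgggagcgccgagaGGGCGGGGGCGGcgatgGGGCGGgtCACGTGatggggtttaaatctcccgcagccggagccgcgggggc
MAT2A (chr2:85538918-85539167, plus strand): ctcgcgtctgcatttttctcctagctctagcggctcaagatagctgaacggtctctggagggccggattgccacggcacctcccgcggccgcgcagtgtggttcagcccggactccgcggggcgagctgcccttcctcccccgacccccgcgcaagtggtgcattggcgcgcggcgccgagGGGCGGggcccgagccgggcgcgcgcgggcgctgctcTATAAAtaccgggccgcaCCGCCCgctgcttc

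The NAMPT window held 3 GC boxes and neither other motif. The SIRT1 window held 2 E-boxes and 4 GC boxes. The MAT2A window held 2 GC boxes and 1 TATA box. Of all 35116 RefSeq windows of this length, 42.6% held a GC box, 6.34% an E-box and 10.7% a TATA box. The 7 members with an entry had 12 windows in all, of which 10 held a GC box, 3 an E-box and 2 a TATA box. NNMT and NAPRT, the 2 members without a window, had no entry in the set of windows used here. A match is a description of these letters, and no binding was measured.

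Depth differed between libraries, so counts per barcode were compared after drawing 5000 UMIs from each barcode that had as many, which left 9060 control barcodes, 12561 of 10 mGy, 14271 of 100 mGy and 11530 of 1 Gy. At this depth, 28.2% of barcodes held an NNMT UMI in the control (27.3% to 29.1%, exact binomial), 53.6% at 10 mGy (52.7% to 54.4%), 51.5% at 100 mGy (50.7% to 52.4%) and 27.4% at 1 Gy (26.6% to 28.2%). The shares of both low doses were close to each other and far from the other libraries. Before thinning they were 60.6%, 65.7%, 64.6% and 50.2%. The libraries hold 1 cell line and no cell type that should lack NNMT, so the part of free RNA in these shares was not estimated.

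Barcodes with 3 or more NNMT UMIs at the fixed depth were 0.99% and 0.94% of all in the control and 1 Gy libraries, and 6.89% and 6.99% in those of 10 mGy and 100 mGy. Barcodes with a single UMI differed by a smaller factor, with 22.5% and 22.6% against 33.1% and 31.4%. At counts this low, a higher mean alone raises the share with 3 or more UMIs by the larger factor. Nothing is thus read from the difference between these factors. The variance of NNMT over its mean, which is 1 for counts that scatter by sampling alone, was 1.12, 1.25, 1.31 and 1.10. The order is control, 10 mGy, 100 mGy and 1 Gy, and the means were 0.351, 0.844, 0.823 and 0.333 UMIs. At the same relative spread between barcodes, the variance over the mean rises with the mean. The values thus do not show a more uneven spread at the low doses. For the other members the variance over the mean lay between 0.98 and 1.05 in every library.

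**Figure D3:**
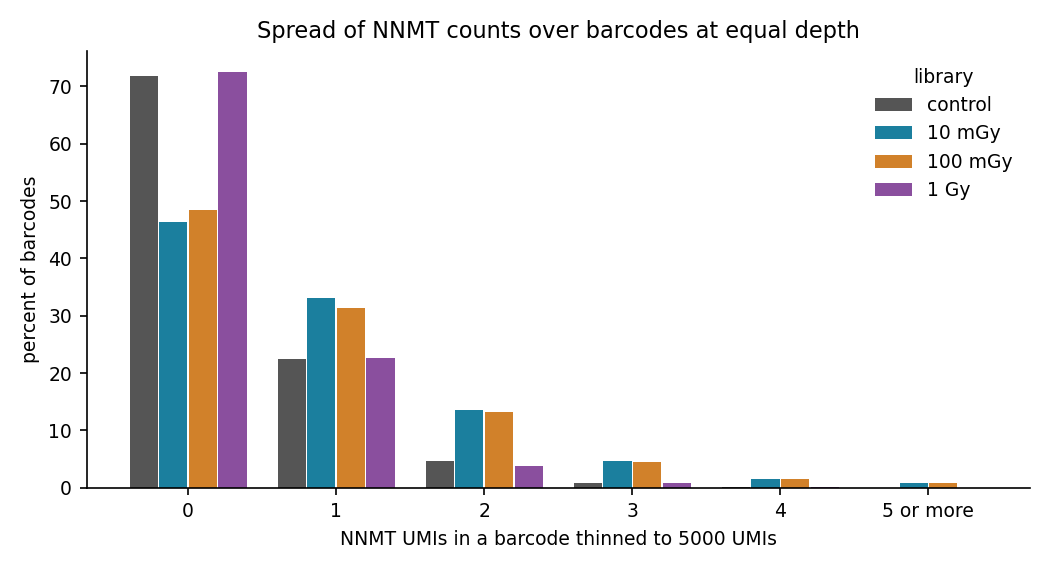
Percent of barcodes (vertical axis, from 0) by the number of NNMT UMIs in a barcode thinned to 5000 UMIs, for each library. Barcodes without an NNMT UMI were 71.8% and 72.6% of all in the control and 1 Gy libraries, but 46.4% and 48.5% in those of 10 mGy and 100 mGy.

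Other members showed smaller gaps at this depth. NAMPT had a UMI in 26.1% of control barcodes, 18.2% of those at 10 mGy, 15.5% at 100 mGy and 25.7% at 1 Gy. SIRT1 had one in 14.3%, 9.04%, 9.36% and 12.9%, and MAT2A in 51.9%, 45.3%, 45.6% and 56.3%.

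Within each library, NNMT was also pooled in classes of barcodes. In the low-UMI barcodes it was at 76.9 CPM in the control, 209 CPM at 10 mGy, 180.1 CPM at 100 mGy and 100.0 CPM at 1 Gy. In the others it was at 69.3, 170.0, 162 and 66.5 CPM. In the control the intervals of these classes overlapped (69.1 to 85.4 and 68.2 to 70.4 CPM), and in each of the other libraries the low-UMI class was higher without overlap, by up to 1.5-fold at 1 Gy. In them, the ratio at 1 Gy to the control was 1.30 (1.14 to 1.49), whereas in the others it was 0.959 (0.937 to 0.982). Without the low-UMI barcodes, the ratio of NNMT at 10 mGy was 2.45 (2.41 to 2.50). Across 4 equal classes of the UMI count among the others, it was between 2.28 and 2.59 at 10 mGy and between 2.13 and 2.51 at 100 mGy.

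The G2/M class was the 10% of the other barcodes with the highest share of UMIs from 12 G2/M genes. The class is a range of a score and not a cell type. In CPM, NNMT was lower in the G2/M class than in barcodes of neither of the 2 marker classes. It was at 57.6 CPM against 70.2 CPM in the control, 162 against 169 CPM at 10 mGy, 135 against 162 CPM at 100 mGy and 56.4 against 66.7 CPM at 1 Gy. The S class was the 10% with the highest share from 12 S phase genes, less those in the G2/M class. In CPM, NNMT was higher there than in neither class, at 76.0, 191, 200.1 and 77.9 CPM in the same order. S class barcodes were smaller, with a median of 19309 UMIs against 21784 in neither class of the control. Per barcode, NNMT UMIs were fewer in the S class than in neither class in each library. In the G2/M class they were also fewer per barcode, except at 10 mGy. In CPM the direction was the same in the 4 libraries for both classes, and the intervals of each class and of the rest did not overlap. Within the G2/M class the ratio at 10 mGy was 2.81 (2.64 to 2.99), and within the S class 2.51 (2.36 to 2.67). Between 599 and 823 barcodes of a library lay within 10% of the G2/M limit and 1181 to 1534 within 10% of the S limit. Summed over the library, the G2/M list was at 3538, 2750, 3048 and 3717 CPM from the control to 1 Gy. The G2/M limit was each library's own, at 0.648%, 0.490%, 0.551% and 0.668% of UMIs in that order. The class thus does not hold like barcodes in different libraries, and the ratios within it are no test. The part of the G2/M genes in the levels of NNMT was not tested.

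SIRT1 went the opposite way along the G2/M score. It was at 39.5 CPM in the G2/M class and 30.7 CPM in neither class of the control, 23.1 against 19.1 CPM at 10 mGy, 24.4 against 19.9 CPM at 100 mGy and 33.7 against 27.9 CPM at 1 Gy. The G2/M class was thus 1.21-fold to 1.29-fold higher in each library. NNT was higher in the S class than in neither by 1.16-fold at 10 mGy and 1.28-fold at 100 mGy, while in the control and at 1 Gy the intervals of these classes overlapped. NAMPT was at 66.6 CPM in the S class against 60.9 CPM in neither in the control, and 66.2 against 57.9 CPM at 1 Gy. NADK was at 43.8 against 39.3 CPM in the control, and SIRT1 at 24.1 against 27.9 CPM at 1 Gy. In these cases too the intervals did not overlap. Per barcode, the UMIs of NAMPT and NADK in these libraries, and of NNT at 10 mGy, were fewer in the S class than in neither. Those higher levels thus hold in CPM only. For NADK, NAMPT, NAPRT, NNT, AHCY and MAT2A the G2/M class differed from the rest by less than 1.13-fold in each library. NMNAT1, the member with the fewest UMIs, was at 11.0 CPM (9.76 to 12.3) in the G2/M class and 8.43 CPM (8.03 to 8.85) in neither at 100 mGy, and in the other libraries the intervals of these classes overlapped.

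**Figure D4:**
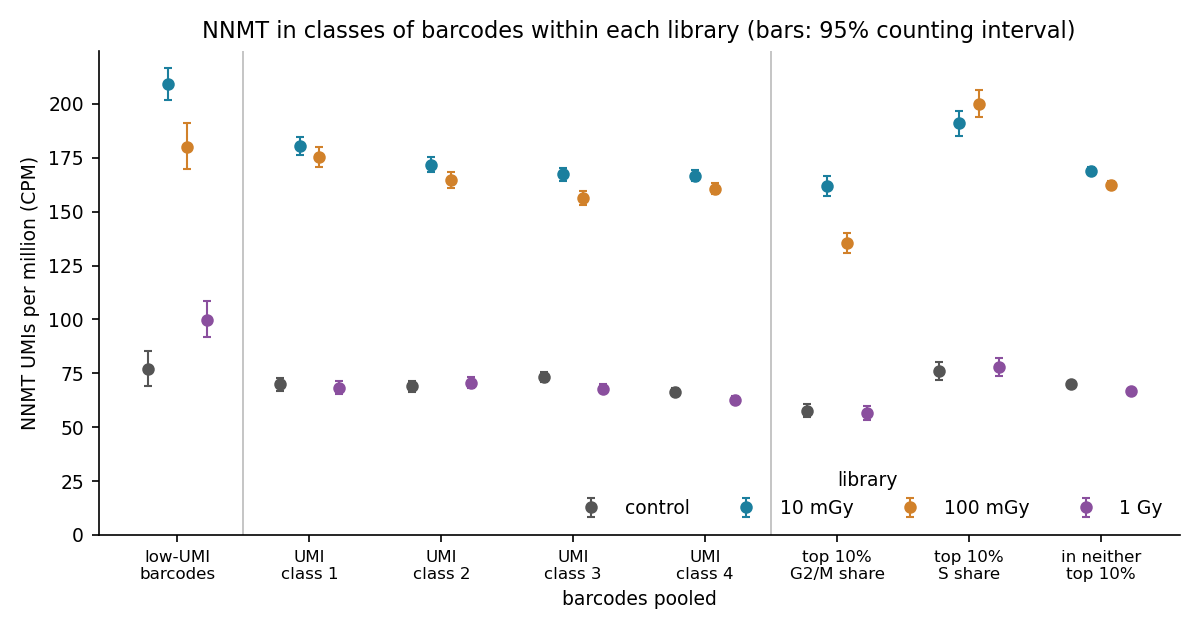
Pooled NNMT level in CPM (vertical axis, from 0) in low-UMI barcodes, in 4 equal classes of the UMI count among the other barcodes, and in the 10% with the highest share of G2/M or S phase marker UMIs and the rest, for each library with 95% counting intervals. Both low doses lay at 135 CPM or more in every class, and the control and 1 Gy at or below 100.0 CPM.

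The length of the genes moved with the ratios at the low doses. Exonic length (all annotated exons of a gene joined, from GENCODE 29) was known for 8500 of the 8507 genes, and its Spearman rho with the log2 ratio was -0.55 for 10 mGy, -0.57 for 100 mGy and 0.031 for 1 Gy, a description across genes, which are not independent replicates. When the genes were put in 4 equal classes of length, in the shortest (131 to 3396 bases) the median ratio was 1.11 at 10 mGy, and 40.3% of genes were over 1.2-fold higher. In the longest class it was 0.666, with 2.96% higher. NNMT, of 2919 bases, and NAPRT, of 3079 bases, belong to the shortest class. NNMT was the third highest of its 2125 genes at 10 mGy and the second at 100 mGy, whereas NAPRT was higher than 70.3% and 63.5% of them. The places of NNMT carry no weight, since it was chosen by its ratio at 10 mGy with its pattern over the doses known.

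NAMPT (9049 bases) and NNT (8245 bases) belong to the longest class. NAMPT was near its median at 10 mGy, above 52.7% of these genes, and above 33.0% at 100 mGy. NNT was above 82.4% and 76.3%. The longest single transcripts of NAMPT and NNT have 4582 and 6483 bases, a measure by which no classes were made. SIRT1 (4551 bases) was lower than most genes of the second class, above 8.98% at 10 mGy and 18.9% at 100 mGy, while AHCY (3894 bases) was above 81.7% and 88.8% of the same class. The part of length in the ratios of the members was not tested.

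**Figure D5:**
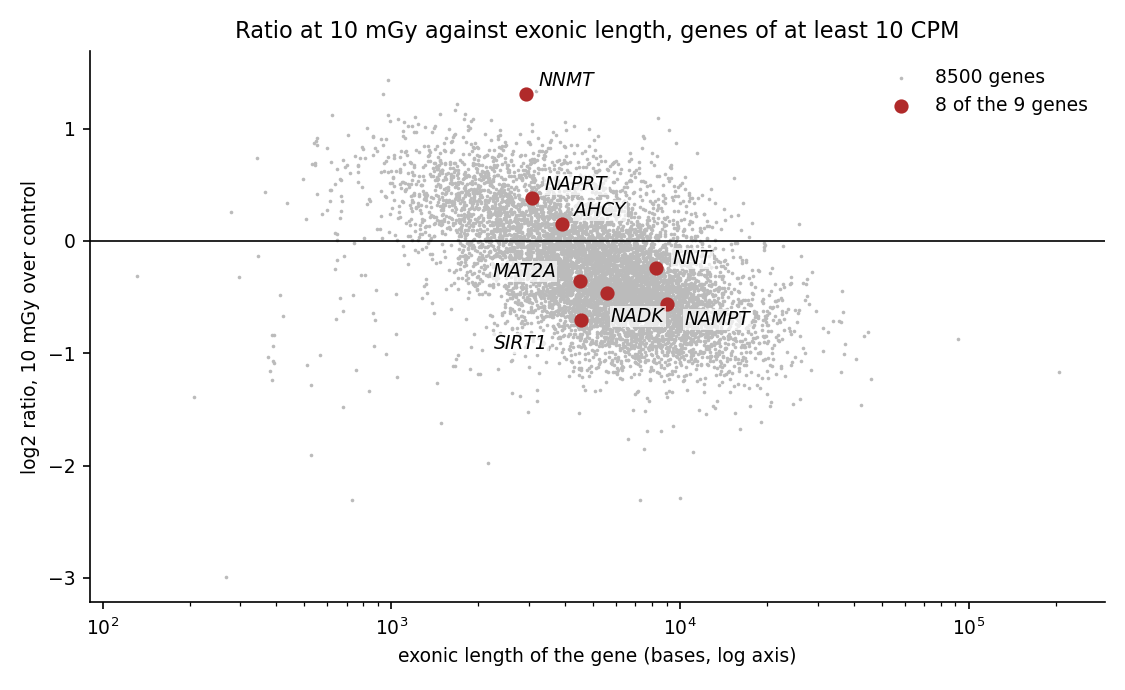
Log2 ratio of 10 mGy to the control (vertical axis) against exonic length in bases (horizontal log axis) for 8500 genes in grey and the 8 members with at least 10 CPM in red. NNMT lay at the upper edge at 1.31, with NAPRT at 0.38 and AHCY at 0.15 above the line at 0, and the other members below it.

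Of a list of 77 genes of NAD and one-carbon metabolism that holds the 9 members, 37 had at least 10 CPM, 29 of them no members. At 10 mGy, 4 of these 29 were over 1.2-fold higher (AFMID, NAXE, MAT2B and GAMT) and 12 lower, and at 100 mGy 3 were higher (AFMID, NAXE and GAMT) and 14 lower. These are 13.8% and 41.4% at 10 mGy, where 15.4% and 53.0% of all genes were higher and lower, and 10.3% and 48.3% at 100 mGy, against 14.0% and 58.9%. Their median ratios were 0.928 and 0.876, above the 0.810 and 0.766 of all genes. Nothing is read from this difference, since the list was chosen with earlier results known and the length of its genes was not taken into account. At 1 Gy, 0 of the 29 passed 1.2-fold in either direction and their median was 1.01.

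NAXE, an epimerase that repairs hydrated NADH, was at 56.3 CPM in the control, 84.0 CPM at 10 mGy, 85.5 CPM at 100 mGy and 63.0 CPM at 1 Gy. It was thus highest at the low doses, with ratios of 1.49 (1.46 to 1.52) and 1.52 (1.48 to 1.55). AFMID, which acts in the route from tryptophan, was at 9.97, 13.4, 15.4 and 10.8 CPM, with ratios of 1.34 at 10 mGy and 1.54 at 100 mGy.

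Among the genes whose products consume NAD, 12 of 22 had at least 10 CPM, and 7 of them (58.3%) were over 1.2-fold lower at each low dose while 0 were higher. The share that was lower is near that of all genes, 53.0% at 10 mGy and 58.9% at 100 mGy. Higher were 15.4% and 14.0% of all genes, and nothing is read from 0 of 12. TNKS, which encodes the ADP-ribosyltransferase tankyrase, had the lowest ratio of the 37 listed genes with at least 10 CPM, with 29.6 CPM in the control, 13.8 CPM at 10 mGy, 12.6 CPM at 100 mGy and 26.3 CPM at 1 Gy. Its ratios at 10 mGy and 100 mGy were 0.466 (0.448 to 0.485) and 0.427 (0.409 to 0.446). PARP4, another member of the PARP family, was also lower at the low doses, with 58.6, 34.9, 33.0 and 52.2 CPM from the control to 1 Gy.

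In the methionine cycle, 10 of 18 genes had at least 10 CPM, of which 1 was higher and 4 were lower at 10 mGy, and 0 were higher and 6 lower at 100 mGy, near or below the shares of all genes (15.4% and 53.0%, then 14.0% and 58.9%). MTR, the enzyme that remethylates homocysteine to methionine, was at 66.6 CPM in the control, 37.8 CPM at 10 mGy, 35.4 CPM at 100 mGy and 63.6 CPM at 1 Gy. Its ratios at the low doses were 0.567 and 0.531. At 1 Gy the highest ratios of the list were those of AHCY, SIRT2 (1.13) and SIRT6 (1.13), and the lowest those of TNKS (0.891), PARP4 (0.891) and SIRT1.

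The genes whose 3 log2 ratios to the control were nearest to those of NNMT, by Euclidean distance among 1778 other genes of at least 100 CPM, were C12orf57, NDUFB3, IFI27L2, NDUFB4 and MGST3, at distances of 0.25 to 0.33. C12orf57 had ratios of 2.20, 2.13 and 1.06 at 10 mGy, 100 mGy and 1 Gy, and NDUFB3, a subunit of mitochondrial complex I, had 2.08, 2.49 and 1.00. With the minimum lowered to 10 CPM, the nearest were TRAPPC6A, LINC01638 and MGST2, at 7.42, 7.37 and 7.16 CPM in the control. C12orf57, NDUFB3, IFI27L2 and NDUFB4 were at 69.7, 74.3, 62.7 and 91.6 CPM there. All of these genes but MGST3 thus passed the minimum through the libraries where they were high. The distance selects for likeness and uses the 10 mGy ratio by which NNMT was chosen, so the likeness supports nothing.

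Across barcodes thinned to 5000 UMIs within a library, correlations of log2(UMIs + 1) with NNMT were weak, with medians over the 4 libraries between -0.067 and 0.073 for 2858 genes of at least 50 CPM in every library. The highest were CYP1B1, TAGLN, SPARC, MYL6 and CCDC80, and the lowest RPL12, MT-ND2, HSP90AA1, HSP90AB1 and RPS2. CYP1B1, a cytochrome P450 enzyme, had Pearson r of 0.052, 0.095, 0.109 and 0.051 from the control to 1 Gy. For the other 8 members r lay between -0.020 and 0.024 in every library. At counts this sparse such values are no finding.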

How the data were processed

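For 4 single-cell libraries, the authors deposited raw counts of UMIs by gene and barcode (Chromium 3′, v3), without normalization. The header of the count files names Cell Ranger 7.0.1. The submitters' processing notes also name STAR and GRCh37, with no role, and the annotation, the strand setting and the treatment of intronic reads were not stated where looked for (not given in the sources used here). Every deposited barcode was used, and each library holds more barcodes than the number of cells the study gives per group. Doublets were kept, and no doublet caller was run.

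UMIs were summed over barcodes and divided by the library total, per 1000000 (CPM). Ratios carry exact 95% intervals (Poisson counts, conditional binomial) and shares exact binomial ones. They cover counting error only. Total counts of 211752280 to 285806026 leave little counting error, and precision is limited by having 1 library per dose. Genes needed 10 CPM as the mean over the 4 libraries to be counted (8507 genes), and genes past 1.2-fold were counted. Barcodes were thinned to 1500 or 5000 UMIs without replacement. Sums, ratios and thinning were tested on simulated data. Python 3.11.15, numpy 2.4.6, scipy 1.17.1 and pandas 2.3.3 were used.

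The 9 members, the list of 77 genes, the markers and the tests were chosen with earlier results of these data known. Genes named beside the members are the 3 highest and 3 lowest ratios of the list at each dose, the 5 nearest to NNMT, the 5 highest and 5 lowest correlations with it, the 2 next rises at 10 mGy, and relatives that may share reads. TMEM40, LINC01638, MGST2, TRAPPC6A, MAT2B, GAMT, NNT-AS1 and, from the markers, FN1 were named after their values were seen.

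Alternatives were UMIs scaled to 10000 per barcode, unscaled UMIs, log means, median ratio scaling, totals without ribosomal protein and mitochondrially encoded genes, no low-UMI barcodes, a minimum of 200 genes with no more than 20% of UMIs from mitochondrial DNA, thinning, 1.5-fold, and other minimum levels. A minimum of 700 genes per barcode and the middle 50% of UMI counts were added after the data were seen. RefSeq windows are on GRCh38.p14, a build that may differ from that of the counts, so promoters were matched by symbol, and the only coordinates printed are those of the 3 RefSeq windows.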

Additional observations from a re-analysis of the deposited data

How the results depend on the processing

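Each dose has 1 library, so no replicate could be left out. No paired analysis was possible because each dose has 1 library. Of 297 ratios of the members to the control over 11 alternatives, 276 stayed on the side of 1 they had with pooled CPM. Those of NNMT at the low doses were all above 1. Thinning leaves few UMIs of NMNAT1, NADK and NNT, and their changes of side at 1 Gy under thinning carry that counting error.

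The ratio of NNMT at 10 mGy was 2.57 scaled per barcode, 1.72 with unscaled UMIs, 1.43 with log means, 2.63 without ribosomal protein and mitochondrially encoded genes, 2.37 in the middle 50% of UMI counts, 2.60 and 2.40 thinned to 1500 and 5000 UMIs, and 3.05 with median ratio scaling. At 100 mGy it was 1.5 unscaled, 1.34 with log means, 2.54 without those genes, 2.24 in the middle 50%, 2.30 thinned to 1500 and 3.06 with median ratio scaling. At 1 Gy it was 1.05 scaled per barcode and 0.692 unscaled. For 100 mGy over 1 Gy it was 2.21 scaled per barcode, 2.17 unscaled, 1.38 with log means, 2.62 without those genes, 2.31 in the middle 50%, 2.36 and 2.47 thinned, and 3.22 with median ratio scaling. Log means compress a ratio by construction, and unscaled UMIs carry the depth per barcode. Log means also moved AHCY at 10 mGy across 1, to 0.955. The cause of the shifts was not tested.

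Unscaled UMIs put NAPRT at 0.903 and 0.776 at the low doses and AHCY at 0.894 at 1 Gy, and median ratio scaling put MAT2A at 1.07 at 100 mGy. Median ratio scaling moved the median gene from -0.30 to 0.00 at 10 mGy and from -0.38 to 0.00 at 100 mGy (log2). With it, 30.6% of genes were over 1.2-fold higher at 10 mGy and 27.3% lower, and 31.8% and 29.01% at 100 mGy. Of all genes, 84.6%, 90.1% and 97.2% were over 1.2-fold lower at 10 mGy, 100 mGy and 1 Gy with unscaled UMIs, and 15.8%, 16.7% and 0.282% with log means. Over 1.2-fold higher were 1.62%, 1.02% and 0% unscaled, and 3.49%, 3.20% and 0% with log means. The counts of members and of list genes below are to be read against these shares. Thinned to 1500 UMIs, 4.67% of all genes were higher and 2.42% lower at 1 Gy.

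Members over 1.2-fold higher at 10 mGy numbered 1 unscaled, with log means or at 1.5-fold, and those lower 1 with log means, median ratio scaling or 1.5-fold. At 100 mGy, 1 was higher scaled per barcode, unscaled, with log means, in the middle 50%, thinned to 5000 or at 1.5-fold, and lower were 2 with log means, 1 with median ratio scaling and 3 at 1.5-fold. At 1 Gy, 0 were higher scaled per barcode, unscaled, with log means or at 1.5-fold, and 7 were lower unscaled. Some settings raised the counts at the low doses. With median ratio scaling AHCY was also higher, at 1.36 for 10 mGy and 1.55 for 100 mGy. Unscaled, AHCY was also lower (0.768 and 0.762), as were NNT at 10 mGy (0.587) and NAPRT at 100 mGy (0.776).

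Of the list of 77 genes, the 37 with at least 10 CPM, NNMT among them, were counted in each setting except where another minimum is named. With pooled CPM, 6 were higher and 16 lower at 10 mGy, which is 16.2% and 43.2%, against 15.4% and 53.0% of all genes. At 100 mGy the shares were 13.5% and 51.4%, against 14.0% and 58.9%. Nothing is read from these counts. Higher there were 1 unscaled, with log means or at 1.5-fold, 14 with median ratio scaling, 10 with a minimum of 1 CPM and 16 with 1 UMI in every library as the minimum. Lower there were 31 unscaled, 3 with log means, 6 with median ratio scaling or at 1.5-fold, and 26 with 1 UMI as the minimum. At 100 mGy, where 5 were higher and 19 lower, higher were 1 unscaled or with log means, 14 with median ratio scaling, 3 at 1.5-fold and 8 with 1 UMI as the minimum, and lower were 33 unscaled, 5 with log means, 9 with median ratio scaling, 11 at 1.5-fold and 35 with 1 UMI as the minimum. At 1 Gy, where 1 was higher and 0 lower, higher were 0 scaled per barcode, unscaled, with log means or at 1.5-fold, 2 thinned to 1500, 3 with a minimum of 1 CPM and 8 with 1 UMI as the minimum, and lower were 36 unscaled, 1 thinned to 1500 and 3 with 1 UMI as the minimum. A minimum of 1 CPM left 56 list genes and 12879 of all genes, of which 15.2% were higher at 10 mGy and 3.14% at 1 Gy. With 1 UMI in every library as the minimum there were 70 list genes and 23201 of all genes, of which 17.0% were higher and 58.0% lower at 10 mGy, 13.7% and 63.2% at 100 mGy, and 15.7% and 11.5% at 1 Gy.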
